A study of Danio rerio with 2 samples.

Results

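The genes described are the integrin subunits, taken by symbol: every alpha subunit (*itga* followed by its number or letter) and every numbered beta subunit (*itgb*), leaving out the integrin beta binding proteins. They came to 33 of the 36351 genes in the files, 21 alpha and 12 beta subunits, and none of these symbols occurred more than once. They held 42320 UMIs (unique molecular identifiers, each standing for 1 captured transcript end), 30667 of alpha and 11653 of beta subunits.

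The cells were sorted from zebrafish embryos at 24 h post-fertilization (hpf) for mCherry driven by the *kdrl* promoter, which marks endothelial cells, and were run as 1 droplet library per genotype. The mutant library, labelled Aktmutant and called aktΔ/Δ here, came from embryos with CRISPR/Cas9-induced premature stop codons in *akt1*, *akt2*, *akt3a* and *akt3b*, the zebrafish genes of the kinase Akt, which acts downstream of growth factor receptors. The other library came from WT embryos with the same reporter. With 1 library per genotype, no difference between aktΔ/Δ and WT had a replicate check, and no test was made: intervals are 95% intervals that cover counting error only.

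Integrins are receptors made of an alpha and a beta chain that anchor cells to the extracellular matrix or to other cells. The alpha chain largely sets the ligand: collagens, laminins, proteins with an RGD motif such as fibronectin, or ligands on other cells. Endothelial cells depend on fibronectin and laminin receptors while vessels assemble, whereas leukocytes carry a set of their own built on the beta2 and beta7 chains.

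The aktΔ/Δ library held 9464 cells with a median of 8247 UMIs, and the WT library 16400 cells with a median of 5930.5 UMIs. Clustering without the integrin genes gave 19 clusters, of which 7 were high in *kdrl* and *cdh5* and were taken as endothelial: 6516 aktΔ/Δ cells (68.9%) and 8838 WT cells (53.9%). The sort label of endothelial cells thus held for part of each library, the rest being blood, epithelial, neural, muscle and other cells, which carried *kdrl* and *cdh5* at lower levels. Cluster 7 (endothelial) and cluster 3 (outside the endothelium) were shallow in both libraries, and 225 cell barcodes occurred in both libraries, 85 of them in endothelial cells. Of the targeted genes, *akt2* had 9.06 CPM in aktΔ/Δ and 13.3 CPM in WT endothelial cells, *akt3b* 8.24 and 9.05 CPM, and *akt1* and *akt3a* under 1 CPM in both; reads at the 3′ end lie outside small edits in the coding sequence and do not check the genotype.

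Levels are in CPM, that is, a gene's UMIs divided by all UMIs of the class and scaled to 1000000. A UMI marks a transcript's 3′ end, so CPM needs no division by length, but the order between genes also depends on how completely each 3′ end is annotated. Of the 33 subunits, 13 reached 200 UMIs in endothelial cells (8 alpha and 5 beta), and the other 20 did not. Over all cells 19 reached that minimum. For the class of highest level, the endothelial clusters were pooled into 1 class and set against 11 other clusters, without the shallow cluster 3. On that footing 14 of the 19 were highest in a class other than the pooled endothelium in both libraries and 3, *itga9*, *itga2.3* and *itgb1b*, in the pooled endothelium in both. The share of all genes highest outside the pooled endothelium was not counted. With 11 classes set against 1, the count of 14 cannot be read as particular to integrins. In cluster 3 *itgb1b* had 5.47 CPM in aktΔ/Δ and 10.3 CPM in WT, the WT value above that of the pooled endothelium. The 14 include subunits whose lead was within counting error, such as *itga5*, whose top class exceeded the pooled endothelium 1.095-fold (0.877 to 1.35) in aktΔ/Δ and 1.08-fold (0.876 to 1.32) in WT, and *itgb3b*, whose WT top class, HSPC-like cells, had 3.19 CPM from 5 UMIs against 3.17 CPM in the pooled endothelium. The top class was the same in both libraries for 16 of the 19.

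**Figure D1:**
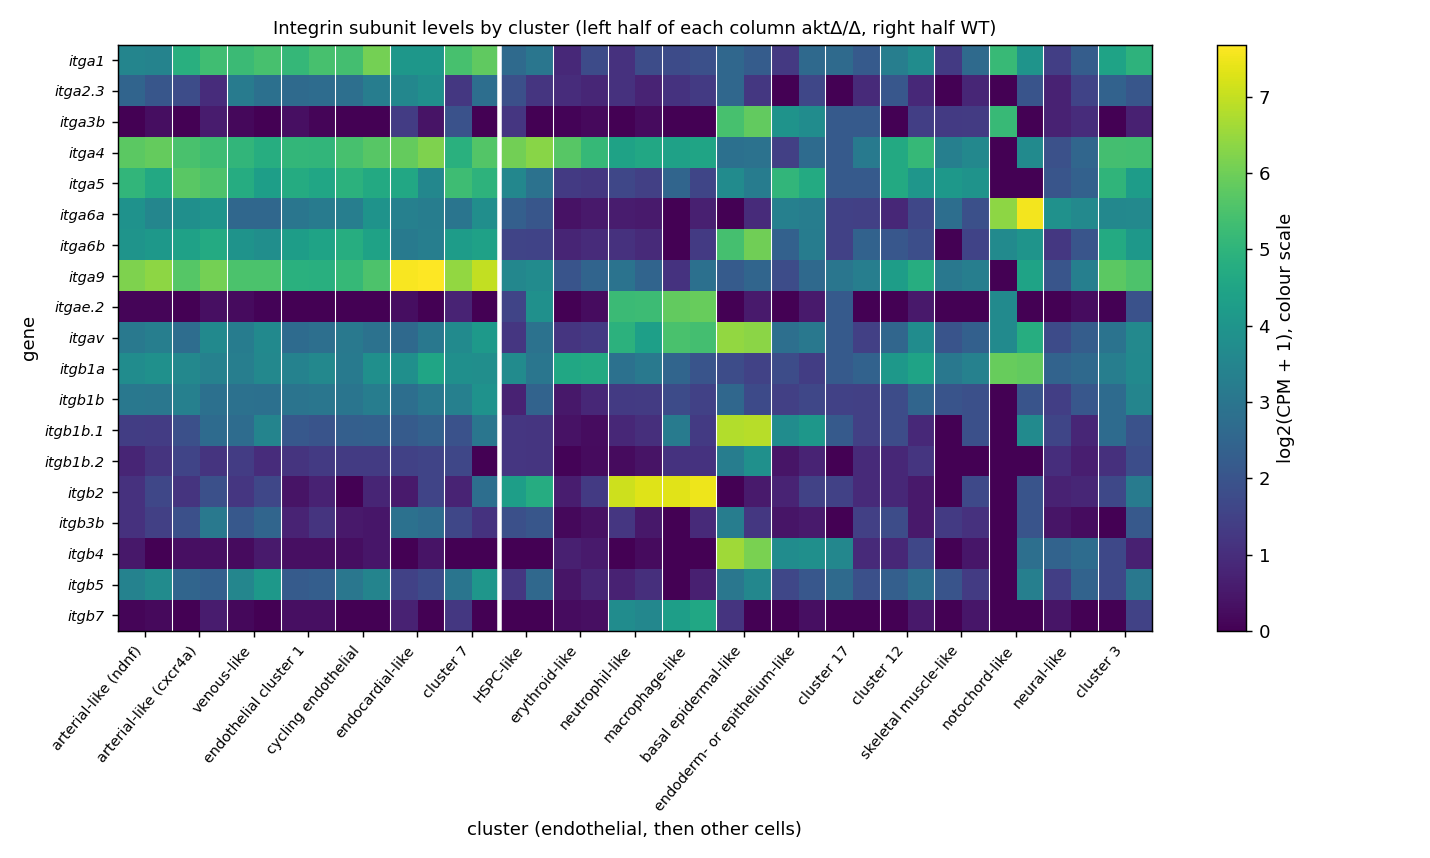
Levels of the 19 integrin subunits with at least 200 UMIs over all cells, as log2(CPM + 1) on a colour scale, by cluster (endothelial clusters left of the thick line). In each column aktΔ/Δ is on the left and WT on the right. *itga9* was brightest in endocardial-like cells, *itgb2* in neutrophil-like and macrophage-like cells, and *itgb4* and *itgb1b.1* in basal epidermal-like cells, in both libraries.

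Within the endothelium alpha subunits summed to 198 CPM in aktΔ/Δ and 204 CPM in WT cells, and beta subunits to 33.2 CPM and 41.5 CPM. Among alpha subunits *itga9*, whose mammalian counterpart binds tenascin and a splice form of fibronectin, stood highest, with 59.0 CPM (57.0 to 61.1) in aktΔ/Δ and 62.4 CPM (60.3 to 64.6) in WT cells. *itga4*, a receptor chain for fibronectin and Vcam1, followed with 40.3 CPM in aktΔ/Δ and 40.8 CPM in WT cells. The next places were not the same in both libraries. *itga5*, the classical fibronectin receptor chain, had 29.4 CPM (28.0 to 30.9) in aktΔ/Δ and 23.0 CPM (21.7 to 24.3) in WT cells. *itga1*, a collagen receptor chain, had 28.5 CPM (27.2 to 29.97) in aktΔ/Δ and 34.2 CPM (32.6 to 35.8) in WT cells. The intervals of these genes overlapped in aktΔ/Δ, whereas in WT *itga1* lay above *itga5*.

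The laminin receptor chains were lower, at 16.3 CPM in aktΔ/Δ and 16.7 CPM in WT cells for *itga6b* and at 8.67 and 8.61 CPM for its paralog *itga6a*. *itgav*, which binds vitronectin and other RGD ligands, had 7.13 CPM in aktΔ/Δ and 9.16 CPM in WT cells. *itga2.3*, a collagen receptor chain, had 6.18 CPM in aktΔ/Δ and 5.37 CPM in WT cells. Its paralogs *itga2.1* and *itga2.2* stayed under 1 CPM there, and reads that fit several of such similar genes cannot be assigned between them.

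Among beta subunits *itgb1a*, the partner of most matrix-binding alpha chains, had the highest endothelial level, 10.3 CPM (9.51 to 11.2) in aktΔ/Δ and 12.2 CPM (11.3 to 13.2) in WT cells. *itgb5*, a partner of the alpha-v chain, had 7.34 CPM (6.65 to 8.08) in aktΔ/Δ and 10.2 CPM (9.37 to 11.1) in WT cells. *itgb1b* had 6.92 CPM in aktΔ/Δ and 6.97 CPM in WT cells. Its near copy *itgb1b.1* had 3.65 CPM in aktΔ/Δ and 5.26 CPM in WT cells. *itgb3b*, the other main partner of alpha-v in vessels, was the lowest of the 5, with 2.19 CPM in aktΔ/Δ and 3.17 CPM in WT cells.

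RNA free in the suspension adds UMIs to every droplet, so shares of cells were set against erythroid-like cells, after each cell was thinned to 1000 UMIs (381 aktΔ/Δ and 439 WT endothelial cells and 7 and 17 erythroid-like cells were shallower and left out). *itga9* was then seen in 6.03% of aktΔ/Δ and 6.19% of WT endothelial cells, against 0.331% and 0.316% of erythroid-like cells. Before thinning its endothelial shares were 32.0% in aktΔ/Δ and 26.3% in WT cells, and its erythroid-like shares 7.04% and 7.46%, at median depths of 8463.5 and 5618.5 UMIs against 29979 and 20475 UMIs. Thinning keeps a smaller part of the UMIs of deeper cells, those of free RNA included. It thus lowers free RNA more in the erythroid-like cells, and the part of free RNA in any of these shares was not tested. *itga5* was in 3.21% of aktΔ/Δ and 2.35% of WT endothelial cells after thinning, against 0.662% and 0.0527% of erythroid-like cells. *itga4* and *itgb1a* stood apart from this. *itga4* was in 3.99% of aktΔ/Δ and 4.29% of WT endothelial cells but also in 5.46% and 4.16% of erythroid-like cells, far above the shares of *itga9* in the same droplets.

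The endothelial clusters differed in *itga9*. In endocardial-like cells, the inner lining of the heart, it had 194 CPM in aktΔ/Δ (852 UMIs, 509 cells) and 204 CPM in WT (627 UMIs, 541 cells), against 47.7 and 53.7 CPM in the remaining endothelial cells. The log2 ratio was 2.02 (1.91 to 2.13) in aktΔ/Δ and 1.93 (1.80 to 2.06) in WT. It was the only one of the 13 subunits at least 1 log2 unit higher in endocardial-like cells in both libraries, as were 3.44% of the 10930 genes with at least 200 endothelial UMIs. *itgb5* was the only one lower by that much in both, with 1.82 CPM in aktΔ/Δ and 2.28 CPM in WT endocardial-like cells against 7.81 and 10.7 CPM elsewhere in the endothelium, beside 9.14% of all genes. *itga4* was also high in endocardial-like cells, at 57.3 CPM in aktΔ/Δ and 73.0 CPM in WT cells, but its ratio to the remaining endothelium stayed under 1.

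The collagen receptor chain *itga1* was low in the arterial-like cluster led by *ndnf*, with 10.3 CPM in aktΔ/Δ and 9.86 CPM in WT cells, against 33.5 and 42.2 CPM in the other endothelial cells. It was higher in the other arterial-like cluster, led by *cxcr4a*, with 27.8 CPM in aktΔ/Δ and 39.5 CPM in WT cells. Venous-like cells had 36.4 CPM in aktΔ/Δ and 42.6 CPM in WT, and cycling endothelial cells 40.7 CPM and 66.6 CPM. *itga5* was highest in the *cxcr4a* cluster, at 51.2 CPM (44.5 to 58.6) in aktΔ/Δ and 45.9 CPM (39.6 to 52.9) in WT cells, and was at 32.3 CPM and 23.8 CPM in the *ndnf* cluster.

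Endothelial cluster 1, led by *foxl2b*, *zfpm2b* and *foxf2a*, had the least *itga9*, 28.1 CPM in aktΔ/Δ and 28.0 CPM in WT cells. It was also low in *itgb5*, with 3.57 CPM in aktΔ/Δ and 3.90 CPM in WT cells. *itgb5* and *itgb1b.1* were highest among the well-covered clusters in venous-like cells, *itgb5* at 10.6 CPM in aktΔ/Δ and 16.04 CPM in WT, and *itgb1b.1* at 5.54 CPM in aktΔ/Δ and 10.0 CPM in WT. *itgb1b.1* was at 1.64 CPM in aktΔ/Δ and 1.59 CPM in WT cells of the *ndnf* cluster.

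**Figure D2:**
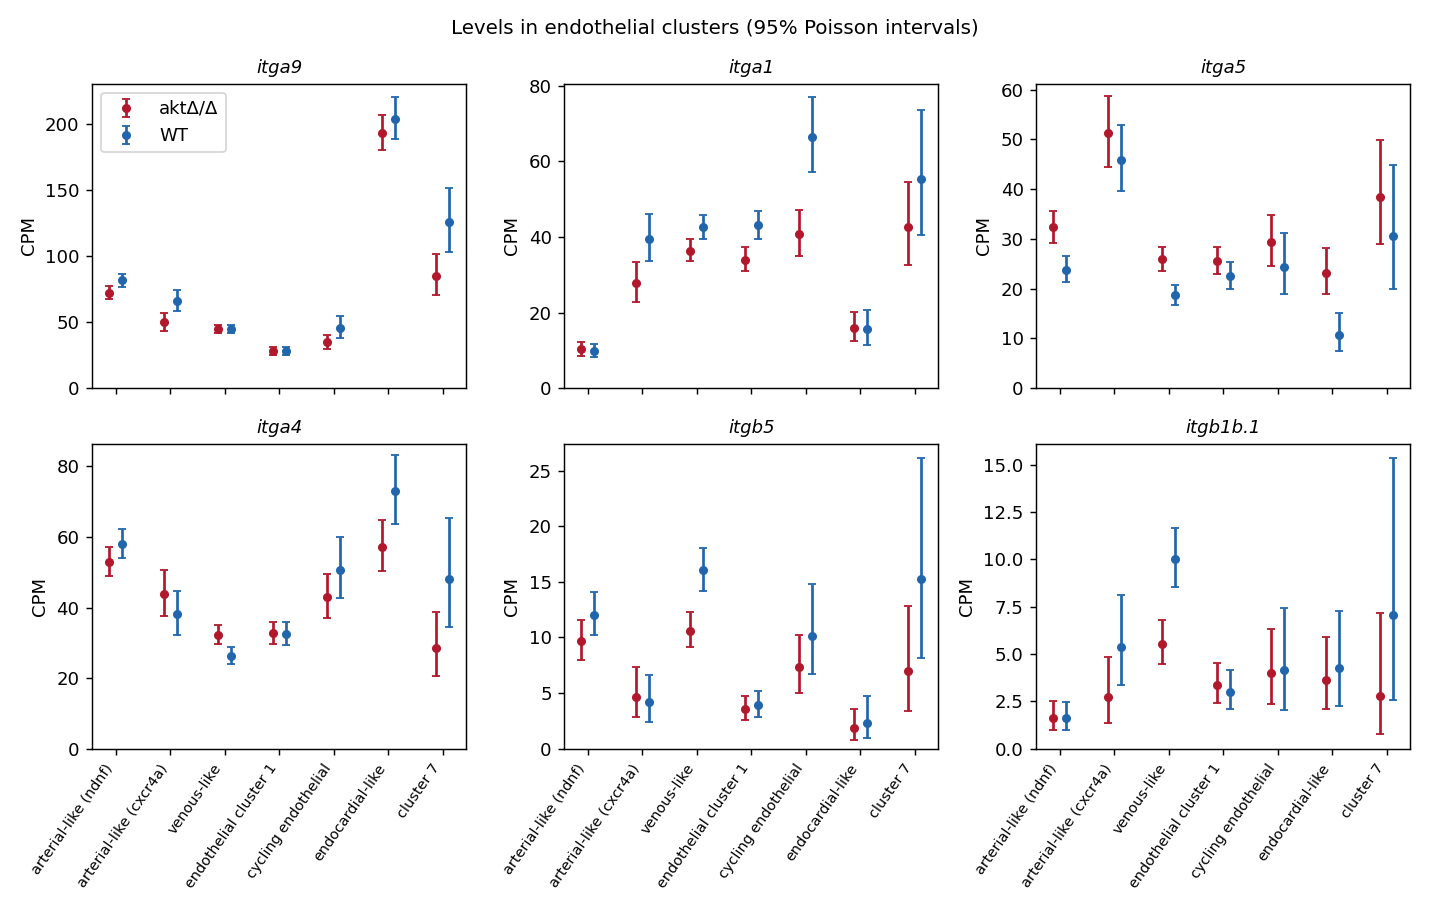
CPM of 6 subunits in each endothelial cluster, aktΔ/Δ (left point) and WT (right point) with 95% Poisson intervals of the counts. *itga9* reached 194 and 204 CPM in endocardial-like cells, and *itga1* was at 10.3 and 9.86 CPM in the *ndnf* arterial-like cluster. The *itga5* point was higher in aktΔ/Δ in each cluster, with overlapping intervals in some.

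Arteries and veins were also compared by marker cells within each library. Artery cells were endothelial cells with at least 1 UMI each of *dll4*, *efnb2a* and *notch3* (402 in aktΔ/Δ and 487 in WT), and vein cells those with *stab2*, *dab2* and *lyve1b* (2137 and 3107). Cells positive for both sets were left out (87 and 131). These cells were deeper than endothelial cells at large, with medians of 11172 and 10528 UMIs in aktΔ/Δ and 7392 and 6672 UMIs in WT. Of the 12 subunits with at least 200 UMIs in artery and vein cells, 2 were higher in artery cells by at least 1 log2 unit in both libraries, as were 2.92% of the 9069 genes at that minimum, and 1 was lower, beside 4.66% of genes. The median log2 ratio of the 12 was 0.37 in aktΔ/Δ and 0.25 in WT, against -0.01 and -0.07 over all genes.

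*itga6a*, the laminin receptor chain, had 17.5 CPM in artery and 5.72 CPM in vein cells of aktΔ/Δ, a log2 ratio of 1.61 (1.20 to 2.01), and 12.4 and 5.74 CPM in WT, a ratio of 1.11 (0.61 to 1.59). *itga9* had 81.7 CPM in artery and 37.1 CPM in vein cells of aktΔ/Δ, and 91.2 and 41.0 CPM in WT, with log2 ratios of 1.14 (0.96 to 1.31) and 1.15 (0.98 to 1.33). The fibronectin receptor chains leaned the same way with smaller ratios, 0.67 in aktΔ/Δ and 0.75 in WT for *itga4* and 0.56 and 0.87 for *itga5*, and none of these 4 intervals reached 0.

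*itga1* went the other way, with 13.4 CPM in artery and 38.1 CPM in vein cells of aktΔ/Δ and 13.4 and 44.8 CPM in WT. Its log2 ratio was -1.51 (-1.90 to -1.15) in aktΔ/Δ and -1.74 (-2.17 to -1.35) in WT. *itgb1b.1* was close to the threshold at -1.41 (-2.76 to -0.30) in aktΔ/Δ, from 7 UMIs in artery and 90 in vein cells, and -0.99 (-1.98 to -0.14) in WT, from 12 and 131 UMIs. *itga2.3* had a ratio of -0.14 (-0.78 to 0.45) in aktΔ/Δ and -1.50 (-2.74 to -0.48) in WT, where artery cells held 8 UMIs; whether the genotypes differ in this ratio was not tested. *itga6b*, the paralog of *itga6a*, was at -0.25 (-0.62 to 0.11) in aktΔ/Δ and 0.23 (-0.14 to 0.59) in WT, so in both libraries the intervals of the *itga6* paralogs did not overlap. Whole clusters were also taken in place of marker cells, with the shallow cluster 7 (1253 cells) counted on the arterial side beside the arterial-like clusters. The ratio of *itga9* to the venous-like cluster was then 0.61 in aktΔ/Δ and 0.84 in WT, and *itga6a* alone remained at 1 or above in both libraries.

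**Figure D3:**
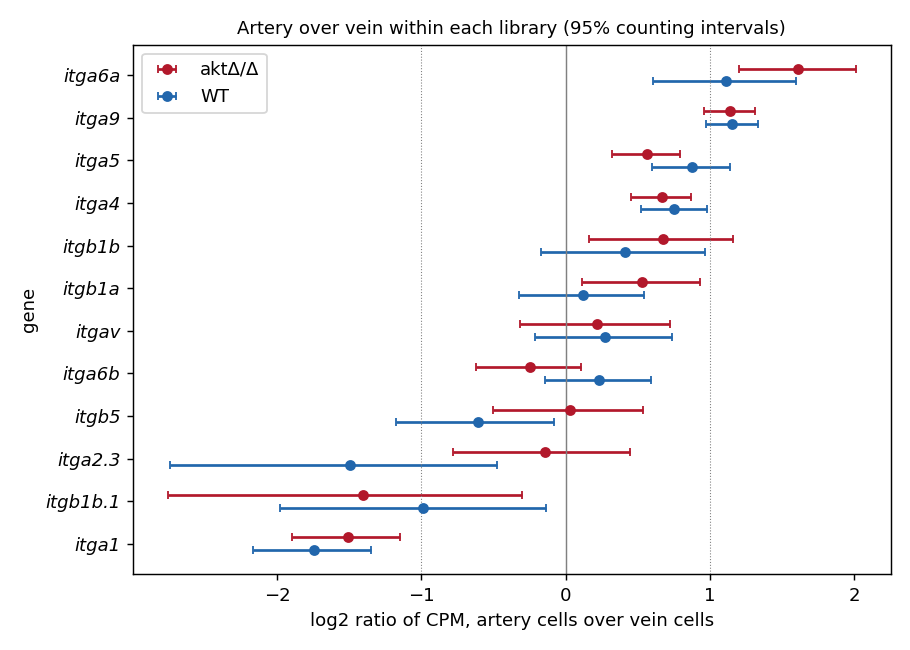
Log2 ratio of CPM in artery cells over vein cells for the 12 subunits with at least 200 UMIs there, aktΔ/Δ above WT, with 95% counting intervals; dotted lines mark -1 and 1. *itga6a* and *itga9* lay right of 1 and *itga1* left of -1 in both libraries.

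Several subunits were high in blood cells and near 0 in the endothelium. *itgb2*, the beta chain of leukocyte integrins, had 137 CPM in aktΔ/Δ and 156 CPM in WT neutrophil-like cells and 162 CPM and 177 CPM in macrophage-like cells, against 0.865 and 1.81 CPM in endothelial cells. HSPC-like cells (hematopoietic stem and progenitor cells) were between these, with 18.6 CPM in aktΔ/Δ and 26.2 CPM in WT. *itgae.2*, related to the mammalian alpha-E chain that pairs with beta7, had 36.5 CPM in aktΔ/Δ and 37.9 CPM in WT neutrophil-like cells, and 56.3 CPM and 58.2 CPM in macrophage-like cells. *itgb7* had 12.2 CPM in aktΔ/Δ and 10.7 CPM in WT neutrophil-like cells, and 18.8 CPM and 22.7 CPM in macrophage-like cells. *itgav* was not near 0 in the endothelium, at 7.13 CPM in aktΔ/Δ and 9.16 CPM in WT. In macrophage-like cells it had 43.4 CPM and 40.8 CPM, 6.09 and 4.45 times these levels. *itgam*, an alpha partner of beta2 in mammalian myeloid cells, had only 21 UMIs in all, and its highest level was in macrophage-like cells. The *itgae.1* paralog had 55 UMIs, none of them in endothelial cells.

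The trace of *itgb2* in endothelial cells was set beside 7 neutrophil markers there, which summed to 128 CPM in aktΔ/Δ (0.0883 to 84.5 CPM each) and 211 CPM in WT (0.320 to 96.0 CPM each), none at 0 and all 7 lower in aktΔ/Δ. At the ratio of *itgb2* to these markers in neutrophil-like cells, such marker levels go with 1.46 CPM of *itgb2* in aktΔ/Δ and 1.54 CPM in WT, against the measured 0.865 and 1.81 CPM. For *itgae.2* they go with 0.388 CPM in aktΔ/Δ and 0.373 CPM in WT. Its measured endothelial levels were lower, 0.106 and 0.0565 CPM, from 6 and 3 UMIs. In the neutrophil-like cells themselves the 7 markers summed to 12026.7 CPM in aktΔ/Δ and 21437.5 CPM in WT, with 5 of 7 lower in aktΔ/Δ. A single marker gave 10057.9 and 18839.9 CPM of these sums. The part of RNA from other cells in the endothelial *itgb2* level was not tested.

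In erythroid-like cells *itga4* and *itgb1a*, whose products pair as a fibronectin and Vcam1 receptor, were the leading subunits. *itga4* had 50.2 CPM in aktΔ/Δ and 34.5 CPM in WT erythroid-like cells, and *itgb1a* 22.7 CPM and 24.4 CPM, 2.20 and 2.01 times its endothelial level. *itga9* was at 2.97 CPM in aktΔ/Δ and 4.58 CPM in WT there, and *itga5* at 1.45 CPM and 1.36 CPM. With the endothelium pooled, *itga4* was highest in HSPC-like cells, at 65.2 CPM in aktΔ/Δ (98 UMIs) and 78.5 CPM in WT (123 UMIs). The endocardial-like cluster alone was close to this, at 57.3 CPM in aktΔ/Δ and 73.0 CPM in WT. *itga2b*, used in zebrafish to mark thrombocytes and early hematopoietic stem cells, had 43 UMIs in all, with its highest level in erythroid-like cells, 1.03 CPM in aktΔ/Δ and 0.596 CPM in WT.

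Basal epidermal-like cells (63 in aktΔ/Δ and 215 in WT) rest on a laminin-rich basement membrane, and their leading subunits were laminin receptor chains, *itgav* and a beta1 copy. *itgb4*, the hemidesmosome chain that pairs with alpha6, had 96.1 CPM in aktΔ/Δ and 69.6 CPM in WT cells, against 0.229 and 0.264 CPM in the endothelium. *itga3b*, a laminin receptor chain, had 42.6 CPM in aktΔ/Δ and 56.6 CPM in WT, and *itga6b* 41.4 CPM and 64.0 CPM. *itgb1b.1* had 110 CPM (88.1 to 135) in aktΔ/Δ and 115 CPM (101 to 130) in WT, while *itgb1a* was at 2.43 CPM and 1.86 CPM. The beta1 paralogs thus differed in where they were highest. *itgb1a* had its highest level in notochord-like cells, 58.6 CPM in aktΔ/Δ and 56.4 CPM in WT, but from 5 and 19 UMIs. *itgav* reached 85.2 CPM in aktΔ/Δ and 80.7 CPM in WT basal epidermal-like cells, its highest level. *itgb3a* had 20.7 CPM in aktΔ/Δ and 37.1 CPM in WT there, and 0 and 5 UMIs in endothelial cells. Its paralog *itgb3b* had 124 and 168 endothelial UMIs (2.19 and 3.17 CPM). In basal epidermal-like cells *itgb3b* had 8.52 CPM in aktΔ/Δ and 1.39 CPM in WT, from 7 and 3 UMIs.

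Endoderm- or epithelium-like cells shared *itga3b* (14.5 CPM in aktΔ/Δ and 12.4 CPM in WT) and *itgb4* (12.4 CPM and 13.3 CPM) with the epidermis. *itgb6*, which in mammals activates TGF-beta on epithelia, had 12.03 CPM in aktΔ/Δ and 7.25 CPM in WT endoderm- or epithelium-like cells, and 13.4 CPM and 17.6 CPM in basal epidermal-like cells. It was not confined to these classes: skeletal muscle-like cells had 5.91 CPM in aktΔ/Δ (4 UMIs) and 12.9 CPM in WT (34 UMIs). Endoderm- or epithelium-like cells also had *itga5* at 32.2 CPM in aktΔ/Δ and 24.8 CPM in WT, close to its level in the endothelium. Notochord-like cells had the highest *itga6a* level, 82.0 CPM in aktΔ/Δ and 187 CPM in WT, but from 18 and 50 cells with 7 and 63 UMIs. *itgb8* was highest in neural-like cells, from 39 UMIs in all. The cells of cluster 12, where fibroblast and pigment genes met, held the highest levels of *itga11a* and *itga10*, both collagen receptor chains, each under 5 CPM.

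Between the genotypes 2 of the 13 subunits with at least 200 endothelial UMIs were lower in aktΔ/Δ by at least 0.5 log2 units, against 10.7% of the 10930 genes at that minimum, and 0 were higher, against 5.16% of genes. The median log2 ratio of aktΔ/Δ over WT was -0.08 for the 13 and -0.06 for all genes. The lower subunits were *itgb3b*, with 124 UMIs in aktΔ/Δ and 168 in WT and a ratio of -0.53 (-0.88 to -0.19), and *itgb1b.1*, with 207 and 279 UMIs and a ratio of -0.53 (-0.79 to -0.26). With TMM scaling in place of total UMIs, 0 of the 13 passed. *itgb5* lay just inside the threshold at -0.48 (-0.66 to -0.29) and was lower in aktΔ/Δ in 6 of 7 endothelial clusters and 10 of the 12 others. Of all these clusters only venous-like cells had an interval below 0, at -0.60 (-0.88 to -0.32). All clusters share the same libraries, so such tallies, here and for *itgav* and *itga5* below, are not replicates. The share of all genes with tallies like these was not counted. *itgav*, with which the beta3 and beta5 chains pair, was at -0.36 (-0.56 to -0.17) and lower in 6 of 7 endothelial clusters. Of the 12 other clusters 8 were lower and 4 higher. In neutrophil-like cells *itgav* was higher in aktΔ/Δ, at 0.62 (0.34 to 0.91), from 181 and 241 UMIs.

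*itga5* was the subunit with the highest ratio, 0.36 (0.25 to 0.46), and was higher in aktΔ/Δ in 7 of 7 endothelial clusters and in 10 of the 12 others, of which 1 was lower. Among the endothelial clusters its ratio was largest in endocardial-like cells, 1.11 (0.53 to 1.72). There it had 102 UMIs (23.2 CPM) in aktΔ/Δ and 33 UMIs (10.8 CPM) in WT. Venous-like cells had a ratio of 0.48 (0.26 to 0.69) and the *ndnf* arterial-like cluster 0.44 (0.22 to 0.66). Intervals held 0 in the *cxcr4a* cluster (0.16, -0.13 to 0.45) and in endothelial cluster 1 (0.18, -0.06 to 0.41). They also held 0 in cycling endothelial cells (0.27, -0.17 to 0.72) and in cluster 7 (0.33, -0.37 to 1.06). *itga1* was at -0.26 (-0.36 to -0.16) in endothelial cells together and at -0.71 (-1.02 to -0.40) in cycling endothelial cells. *itga9* was at -0.08 (-0.15 to -0.01), which TMM scaling moved to 0.01, and *itgb1a* at -0.24 (-0.40 to -0.07). *itga2.3* was at 0.20 with an interval that held 0 (-0.03 to 0.43). Ratios of *itga4*, *itga6a*, *itga6b* and *itgb1b* lay between -0.03 and 0.01 with intervals that held 0. With endothelial cells taken as all cells holding a UMI of *kdrl* or *cdh5*, *itga5* had a ratio of 0.66 and *itga2.3* of 0.53, both past the threshold, and *itga1* was at 0.02. Neither of the lower subunits passed there, *itgb3b* being at -0.18 and *itgb1b.1* at -0.35, and *itgb5* was at -0.20. The 2 subunits that were lower by at least 0.5 in those cells lay outside the 13.

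In vein cells 2 of 12 subunits were lower in aktΔ/Δ by at least 0.5 log2 units, *itgb5* and *itgb1b.1*, against 9.9% of 8537 genes, and 0 were higher, against 4.39% of genes. *itgb5* had 7.85 CPM in aktΔ/Δ and 12.5 CPM in WT vein cells, a ratio of -0.67 (-0.94 to -0.39). *itgb1b.1* had 3.82 CPM in aktΔ/Δ and 5.92 CPM in WT vein cells, a ratio of -0.63 (-1.04 to -0.23). *itga5* was again higher, at 0.39 (0.22 to 0.57). In artery cells only *itga4*, *itga5* and *itga9* reached 200 UMIs, at ratios of 0.03, 0.08 and -0.16, and all 3 intervals held 0; 0 of 3 passed in either direction, against 5.01% of 3709 genes lower and 5.77% higher.

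In endothelial cells marker lists were lower in aktΔ/Δ too, the venous list among others. The 7 venous markers summed to 2994 CPM in aktΔ/Δ and 3613 CPM in WT vein cells and were all lower in aktΔ/Δ (32.2 to 960 CPM each in aktΔ/Δ, 45.6 to 1103 CPM each in WT, none at 0). Vein cells were picked by UMIs of venous genes, at median depths of 10528 and 6672 UMIs, so this comparison cannot separate level from selection. In all endothelial cells the venous markers summed to 1960 and 2213 CPM, again with all 7 lower. The 7 arterial markers summed to 1423 CPM in aktΔ/Δ and 1745 CPM in WT there, with 6 of 7 lower. The 8 macrophage markers summed to 4.22 and 12.1 CPM, all 8 lower. In erythroid-like cells the venous markers summed to 65.2 and 136 CPM and arterial markers to 38.2 and 68.9 CPM, all 7 of each lower. In artery cells the venous markers went the other way, at 974 and 834 CPM, with 3 of 7 lower. The paper reports no significant change of *flt4*, *ephb4a* and *nrp2b* in its vein cells. Its vein cells made up a larger part of the endothelial cells than those here, and it tested values per cell. Here UMIs were summed over cells without a test, and *nrp2b* is not among the 7 venous markers. The part of the venous markers in the result for *itgb5* was not tested. The 6 basal epidermal markers summed to 15.9 CPM in aktΔ/Δ and 21.3 CPM in WT endothelial cells (0.0177 to 12.04 CPM and 0.0188 to 13.2 CPM each, none at 0) and were all lower in aktΔ/Δ. At the ratio seen in basal epidermal-like cells they go with 0.260 CPM of *itgb1b.1* in aktΔ/Δ and 0.380 CPM in WT. Its measured levels were 3.65 and 5.26 CPM. For *itgb4* they go with 0.229 CPM and 0.230 CPM, against the measured 0.229 and 0.264 CPM. A single marker gave 12.04 of the 15.9 CPM in aktΔ/Δ and 13.2 of the 21.3 CPM in WT. The part of RNA from epidermal cells in either level was not tested.

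**Figure D4:**
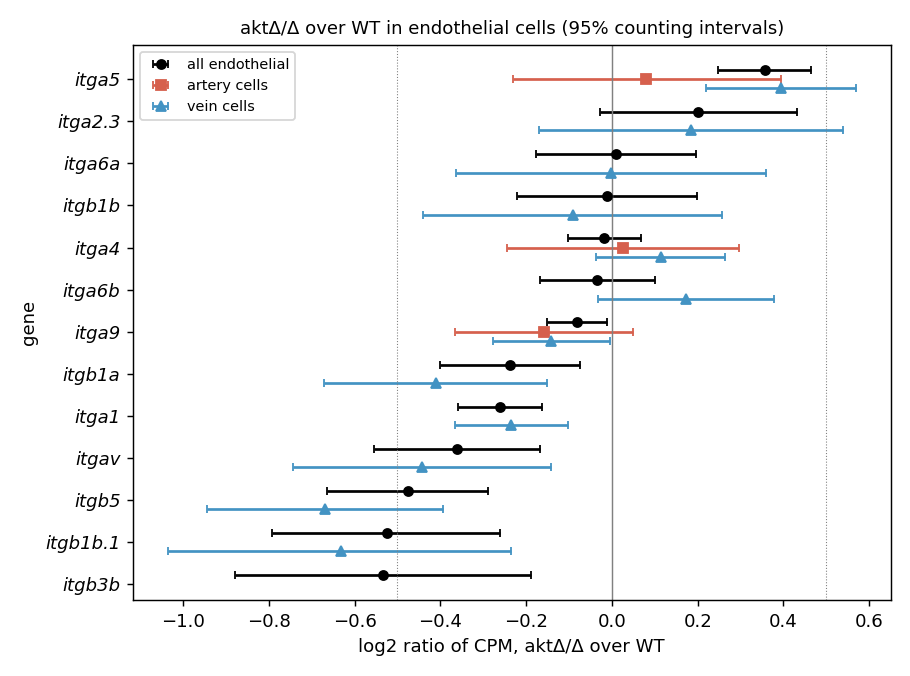
Log2 ratio of CPM in aktΔ/Δ over WT for the 13 subunits with at least 200 endothelial UMIs, in all endothelial cells (circles), artery cells (squares) and vein cells (triangles), shown where the class reached 200 UMIs, with 95% counting intervals; dotted lines mark -0.5 and 0.5. *itga5* lay highest at 0.36, and *itgb3b*, *itgb1b.1* and *itgb5* lowest, at -0.53, -0.53 and -0.48.

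*itga10*, a collagen receptor chain, was nearly without counts in aktΔ/Δ. It had 0 UMIs in aktΔ/Δ and 46 UMIs (0.867 CPM) in WT endothelial cells. With 0 set to 3 UMIs over the library's endothelial cells, and the WT count taken as exact, it was 16.4-fold lower in aktΔ/Δ. The counting interval of its log2 ratio, which covers error in both counts, ended at -3.68, a smaller difference. Whether this is a difference in transcript level, in the sequence of the 3′ end or in mapping was not tested. Over all cells it had 2 UMIs in aktΔ/Δ and 102 in WT, a log2 ratio of -5.18 (-8.25 to -3.29). In WT its UMIs lay in 5 of the 7 endothelial clusters, with 0 in endocardial-like cells and cluster 7. Outside the endothelium erythroid-like cells held 21 UMIs, cluster 12 held 11, neutrophil-like cells 7, skeletal muscle-like cells 5 and neural-like cells 4. Any other class held 3 or fewer, and all levels were under 5 CPM. Of 14291 genes with at least 100 UMIs in WT, 24 (0.168%) had at most 3 UMIs in aktΔ/Δ.

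Inside the cell integrins act through talin, kindlin and the ILK-PINCH-parvin complex, and signal through focal adhesion kinase. Of 30 such adaptor and signal genes, 28 were in the files and 20 had at least 200 endothelial UMIs. In aktΔ/Δ endothelial cells 2 of the 20 were lower by at least 0.5, against the 10.7% of all genes, and 0 higher, with a median log2 ratio of -0.07. *tns2a*, a tensin that links beta chains to actin, had 17.8 CPM in aktΔ/Δ and 28.7 CPM in WT, a ratio of -0.69 (-0.80 to -0.57). *bcar1*, the docking protein p130Cas, had 32.2 CPM in aktΔ/Δ and 47.1 CPM in WT, a ratio of -0.55 (-0.64 to -0.46). The talin gene *tln1* had 180 CPM in both. Between artery and vein cells 2 of 20 were higher in artery cells in both libraries, against 2.92% of all genes, and 0 lower, against 4.66%: *tns2a*, at 1.68 in aktΔ/Δ and 1.53 in WT, and *kank1a*, a talin-binding protein, at 1.30 and 1.09.

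Of 20 ligand genes 19 were in the files and only 4 had the minimum in endothelial cells: *fn1a*, *emilin2a*, *vwf* and *tgfb1a*. Of these 4, 1 was higher in aktΔ/Δ, against 5.16% of all genes, and 0 lower, against 10.7%. *vwf*, von Willebrand factor, a ligand of beta3 integrins, had 5.53 CPM in aktΔ/Δ and 2.32 CPM in WT, a ratio of 1.25 (0.95 to 1.57). The fibronectin gene *fn1a* had 22.8 CPM in aktΔ/Δ and 17.4 CPM in WT endothelial cells. *emilin2a*, an elastin-microfibril protein, had 93.0 CPM in artery and 13.6 CPM in vein cells of aktΔ/Δ, and 101 and 19.7 CPM in WT, with log2 ratios of 2.77 (2.56 to 2.98) and 2.35 (2.15 to 2.55).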

How the data were processed

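Cells positive for *kdrl*:mCherry from aktΔ/Δ and WT embryos gave 1 droplet library each (91736598 and 128759603 UMIs). The authors deposited whole UMI counts per gene and cell, made with Cell Ranger 5.0.0 per the labels; the build is not given in the sources used here. Reads that fit several genes are not counted, so similar paralogs may be undercounted. The members and gene lists were chosen with earlier results of these data known.

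Cells with at least 200 genes were clustered in Seurat 5.3.0 (R 4.3.3; genes in at least 3 cells, 2000 variable genes without the integrin subunits, 30 components), at the resolution closest to the study's 21 clusters. Clusters were named from marker lists. Doublets were kept in the main values, and removal by Scrublet score was an alternative. UMIs were summed per class (Python 3.11.15, scipy 1.17.1) and given as CPM with exact Poisson intervals. Log2 ratios have exact binomial intervals, and shares Clopper-Pearson intervals. TMM factors came from edgeR 4.0.16.

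Subunits were named with at least 200 endothelial UMIs, or with at least 50 UMIs in another class at 4 or more times the endothelial CPM in both libraries; partner genes past 0.5 (genotype) or 1 (artery over vein). Others named were chosen after their values were seen.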

Additional observations from a re-analysis of the deposited data

How the results depend on the processing

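Limits: with 1 library per genotype, batch, clutch and genotype cannot be told apart, and counts of 1 to 4 subunits move with a single gene. The small number of artery cells (402 and 487) left 3 subunits with 200 UMIs there. No paired analysis was possible because each genotype has 1 library, and leaving out a library leaves no comparison.

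Of 504 values of single subunits under 14 alternatives, of which 2 (doublets by Scrublet score, no cluster 7) were added after seeing the data, 479 stayed within the counting interval of the main value, 25 did not, and 0 changed from past a threshold to the opposite sign. The number of subunits highest outside the endothelium stayed within 1.5 times the main 14. The causes of the moves given next were not tested, save where the threshold itself was changed. In all endothelial cells, 2 subunits were lower in aktΔ/Δ, against 1 with at least 500 genes per cell and 1 with 15 components. With TMM scaling 0 were lower, and 0 past a log2 ratio of 1. In cells with *kdrl* or *cdh5* UMIs the count was again 2, but of subunits outside the 13. Neither *itgb3b* (-0.18) nor *itgb1b.1* (-0.35) passed in those cells. In all endothelial cells 0 were higher, against 2 in cells with *kdrl* or *cdh5* UMIs. In vein cells 2 were lower, against 1 in *kdrl* or *cdh5* cells, 4 with a minimum of 50 UMIs, 0 past 1, 1 with depths matched by thinning and 1 without the highest Scrublet scores, and 0 were higher, against 1 in *kdrl* or *cdh5* cells. In artery cells 0 were lower, against 1 with a minimum of 50 UMIs. Higher in artery than in vein cells in both libraries were 2, against 1 in *kdrl* or *cdh5* cells, 4 past 0.5, 1 with at least 2 of 3 markers and 1 by clusters. Lower were 1, against 2 with at least 500 genes per cell, 2 at resolution 0.8, 2 with 15 components, 2 past 0.5, 0 with at least 2 of 3 markers, 3 by clusters and 2 without the highest Scrublet scores.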
